A study of Mus musculus with 11 samples.

Results

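The cluster of miR-183, miR-96 and miR-182 is a group of miRNA hairpins on mouse chromosome 6. Its 4 mature miRNAs mmu-miR-183-5p, mmu-miR-183-3p, mmu-miR-96-5p and mmu-miR-182-5p were chosen by name, not by their values, and all 4 were found among the 1907 miRNA names listed in each library. Small RNA was sequenced in 11 libraries from the brains of male Balb/cOlaHsd mice, 3 months old per the labels, at 3 days after surgery. In the 6 sham samples the left middle cerebral artery (MCA) was exposed and lifted but not closed, and cortex was taken. In the 5 pMCAO samples (permanent MCA occlusion) the artery was closed by thermocoagulation, and the labels give peri-ischemic cortex, the tissue around the ischemic core. The study's methods describe peri-ischemic tissue without setting sham apart. The brains of both groups were perfused, and the olfactory bulb and cerebellum were removed before dissection.

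In the mouse the cluster is best known from sensory cells: its miRNAs are made in large amounts in photoreceptors, in the hair cells of the inner ear and in olfactory and dorsal root ganglion neurons. The 3 hairpins are made from a common primary transcript and have similar seeds, the bases at positions 2 to 8 that pair with target mRNAs. Mutations in the seed of miR-96 cause progressive hearing loss in mice and humans. Outside the sensory organs the cluster is also made in some lymphocytes and other blood cells.

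All 4 members had a mature sequence in RefSeq (GRCm38.p6, the assembly also called mm10). The sequences are shown because the members are alike and reads were mapped to the genome by their sequence, and the capitals mark the seed:
mmu-miR-183-5p: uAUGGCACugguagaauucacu
mmu-miR-96-5p: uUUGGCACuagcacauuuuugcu
mmu-miR-182-5p: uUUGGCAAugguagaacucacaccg
mmu-miR-183-3p: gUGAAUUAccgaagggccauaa
With positions counted from 1 at the 5′ end, the seeds of miR-183-5p and miR-96-5p differ by A2U, those of miR-96-5p and miR-182-5p by C8A, and those of miR-183-5p and miR-182-5p by both. Without gaps, miR-183-5p had the same base as miR-182-5p at 18 of 22 positions and as miR-96-5p at 13 of 22. No other listed name with a RefSeq sequence had the seed of a member, and none shared 16 bases in a row with one. A total of 1623 of the listed names had a sequence for this search, which did not cover the rest of the genome.

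The Mir183 hairpin lies on the minus strand at chr6:30169668-30169737, Mir96 at chr6:30169446-30169551 and Mir182 at chr6:30165918-30165992. Mir183 and Mir96 are separated by 116 bases and Mir96 and Mir182 by 3453 bases. In the GENCODE vM21 annotation, the hairpins overlap no exon or intron of another gene. The long non-coding RNA gene Rncr4, on the plus strand, lies 3156 bases away on the Mir183 side. The nearest protein-coding genes are Nrf1, on the plus strand and 12460 bases away on the Mir182 side, and Ube2h, on the minus strand and 41552 bases away on the Mir183 side. The Mir183 hairpin is printed with both mature arms in capitals, since both are members:
Mir183: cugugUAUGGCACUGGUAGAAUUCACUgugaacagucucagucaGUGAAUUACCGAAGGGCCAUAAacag

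The libraries held between 744877 and 2319810 counts, and every sham library (at least 1429037) was deeper than every pMCAO library (at most 1411620). Group and depth thus cannot be told apart for values near 0. The neuron markers chosen to check the tissue (miR-124-3p, miR-9-5p, miR-128-3p, miR-138-5p, miR-137-3p and miR-218-5p) summed to between 329332 and 417639 CPM in sham and between 282684 and 334213 CPM in pMCAO libraries. CPM is the usual read count relative to library size, here with library sizes normalised by TMM. Sham replicate 1 stood apart in the erythrocyte markers (miR-451a, miR-144-3p, miR-144-5p, miR-486a-5p and miR-486b-5p), which summed to 5375 CPM there and to at most 272 CPM in the other sham libraries. Fold changes, differences and ratios of the members are also given without this library.

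The cluster was rare in this tissue. Together, its 4 members had between 8 and 42 counts in a library and 239 counts in all 11 libraries, 155 in sham and 84 in pMCAO. Their summed level in sham was 16.7 ± 8.32 CPM (SD, n = 6), against 15.5 ± 11.1 CPM (SD, n = 5) after pMCAO. Since the samples are bulk tissue, fewer cells of a type and less RNA per cell cannot be told apart.

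miR-183-5p, the mature strand of the Mir183 hairpin, was the most abundant member and ranked 456 by mean level among the 1267 names with a count. For comparison, miR-124-3p, the abundant miRNA of mature neurons, had a mean sham level 22864 times higher. miR-182-5p ranked 494, miR-96-5p, the member whose seed mutations affect hearing, 680, and miR-183-3p 1008. Of the detected names, 35.9% lay above miR-183-5p, 38.9% above miR-182-5p, 53.6% above miR-96-5p and 79.5% above miR-183-3p, as the plot of levels by rank shows.

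**Figure D1:**
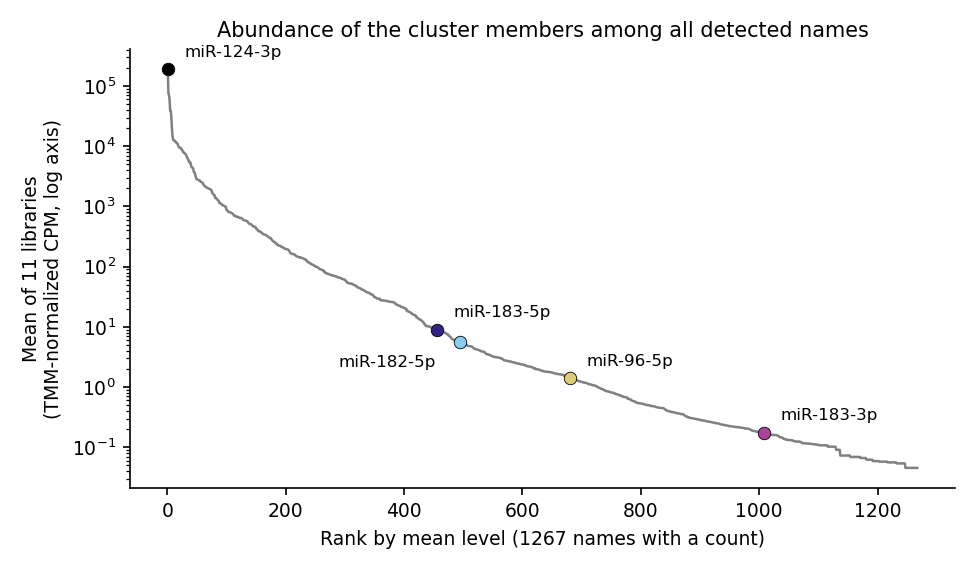
Mean level of each of the 1267 names with a count (TMM-normalised CPM over 11 libraries, log axis) against its rank, with the 4 cluster members and miR-124-3p marked. The members sit at ranks 456, 494, 680 and 1008, far below miR-124-3p.

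Among the sham libraries the counts of miR-183-5p had a lowest value of 8, a median of 14.5 and a highest value of 20. In pMCAO replicates 1 to 5 the counts were 18, 5, 4, 14 and 6. After normalisation, the sham libraries ranged from 3.99 to 14.6 CPM and the pMCAO libraries from 3.20 to 20.2 CPM. The pMCAO group therefore held both the lowest and the highest library, and the groups overlapped.

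The sham mean of miR-183-5p was 9.18 ± 4.55 CPM (SD, n = 6), and the pMCAO mean was 8.77 ± 7.04 CPM (SD, n = 5). This gave a log2 fold change of -0.10, with a standard error of 0.49 and a 95% interval from -1.15 to 0.95 (edgeR, Benjamini-Hochberg over 479 miRNAs, adjusted p = 0.971). A difference was not detectable in these libraries. This standard error ranked 15 from the largest among the tested miRNAs, whose median was 0.18. Without pMCAO replicate 1, the library with the highest level, the log2 fold change was -0.61 and the interval ran from -1.64 to 0.41.

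miR-182-5p had a lowest count of 4, a median of 8 and a highest count of 18 in sham. The pMCAO counts were 10, 3, 5, 3 and 9 in replicates 1 to 5. The mean level in sham was 5.72 ± 3.74 CPM (SD, n = 6), against 5.38 ± 3.52 CPM (SD, n = 5) after pMCAO, and the libraries spanned 1.996 to 12.3 and 2.28 to 11.2 CPM. The range of the pMCAO libraries thus lay within that of the sham libraries, and the mean log2(CPM + 1) differed by -0.05 (pMCAO minus sham, exact permutation test, two-sided, p = 0.922).

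miR-96-5p was counted in 4 of 6 sham and 3 of 5 pMCAO libraries. Its sham counts ran from 0 to 5 with a median of 2.5, and the pMCAO counts were 3, 0, 2, 2 and 0. This corresponds to a sham mean of 1.46 ± 1.38 CPM (SD, n = 6) and a pMCAO mean of 1.30 ± 1.40 CPM (SD, n = 5). Both groups held libraries without a count, and the difference in mean log2(CPM + 1) was -0.11 (exact permutation test, two-sided, p = 0.835).

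miR-183-3p, the passenger strand of the Mir183 hairpin, had 1 count in each of sham replicates 1, 3 and 6 and 0 in the other 8 libraries. All values are under the floor of 3 counts, which is the upper limit that a count of 0 allows and which corresponds to between 1.497 and 3.55 CPM, depending on the library. No fold change is given for that reason. The mean log2(CPM + 1) was 0.36 ± 0.39 (SD, n = 6) in sham and 0 in every pMCAO library (exact permutation test, two-sided, p = 0.242). This test could not have passed the threshold: with 0 in 8 of 11 libraries, the smallest p that any arrangement of these values gives is 0.121. For the other 2 tests of this kind it is 0.00433 for miR-182-5p and 0.00433 for miR-96-5p.

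**Figure D2:**
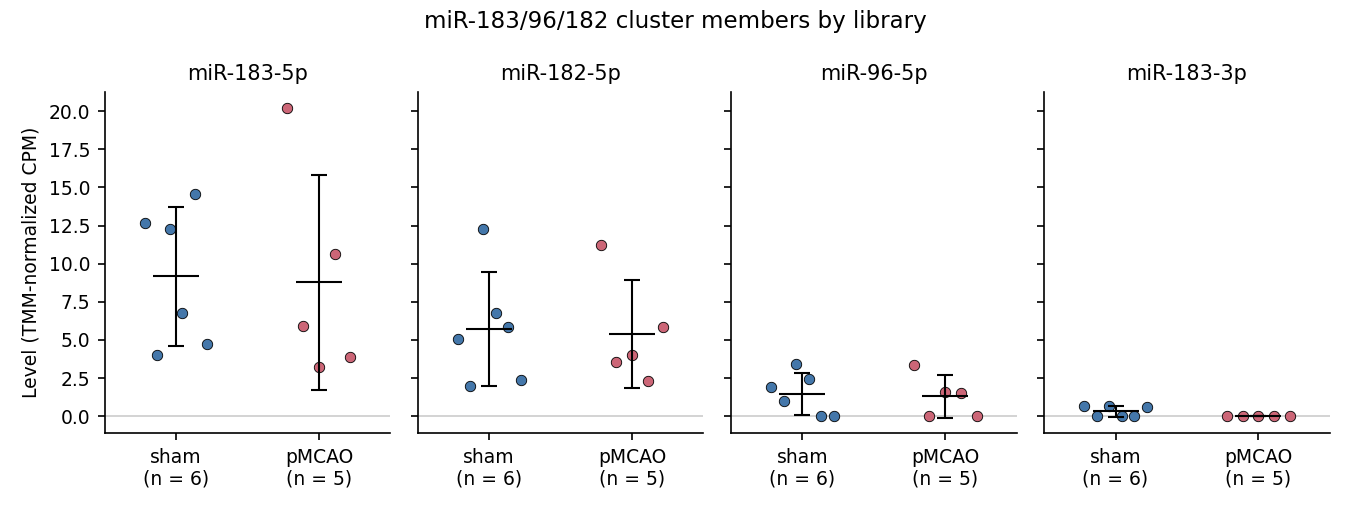
Level of each cluster member (TMM-normalised CPM, linear axis) in the 6 sham and 5 pMCAO libraries, with 1 point per library and the mean ± SD as a bar with whiskers. The groups overlap for miR-183-5p, miR-182-5p and miR-96-5p, and miR-183-3p is at 0 in all 5 pMCAO libraries and in 3 of the 6 sham libraries.

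Of the members, 1 of 4 passed the filter on low counts, which asked for 6.998 CPM (by total counts) in at least 5 libraries. miR-183-5p met it through exactly 5 libraries, 3 sham and 2 pMCAO, whereas miR-182-5p reached that level in 2 libraries and the other members in 0. In edgeR's quasi-likelihood test, 0 of 1 member tested was past an adjusted p of 0.05 or an unadjusted p of 0.05, where 7.1% of all 479 miRNAs were past the first (4.38% higher and 2.71% lower) and 24.4% past the second. For 0 of the 4 members did the groups lie apart. Among the 479 tested miRNAs, which include only 1 member, the share was 7.52%. DESeq2, fitted on 1267 names, called 43 of all names and 0 of the 3 members for which it gave an adjusted p.

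To give the low members an interval, edgeR was also fitted without a filter on 1267 names, of which 2.6% were called, and none of the 4 members. There, miR-182-5p had a log2 fold change of -0.13 (95% interval -1.10 to 0.84) and miR-96-5p of -0.25 (95% interval -1.91 to 1.41). The value for miR-183-5p was -0.13 (95% interval -0.997 to 0.73). Without sham replicate 1, the library high in erythrocyte markers, the 3 log2 fold changes were -0.14, -0.15 and 0.0038, in the order miR-182-5p, miR-96-5p and miR-183-5p. The differences in mean log2(CPM + 1) without it were -0.04 for miR-182-5p, -0.02 for miR-96-5p and -0.28 for miR-183-3p.

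**Figure D3:**
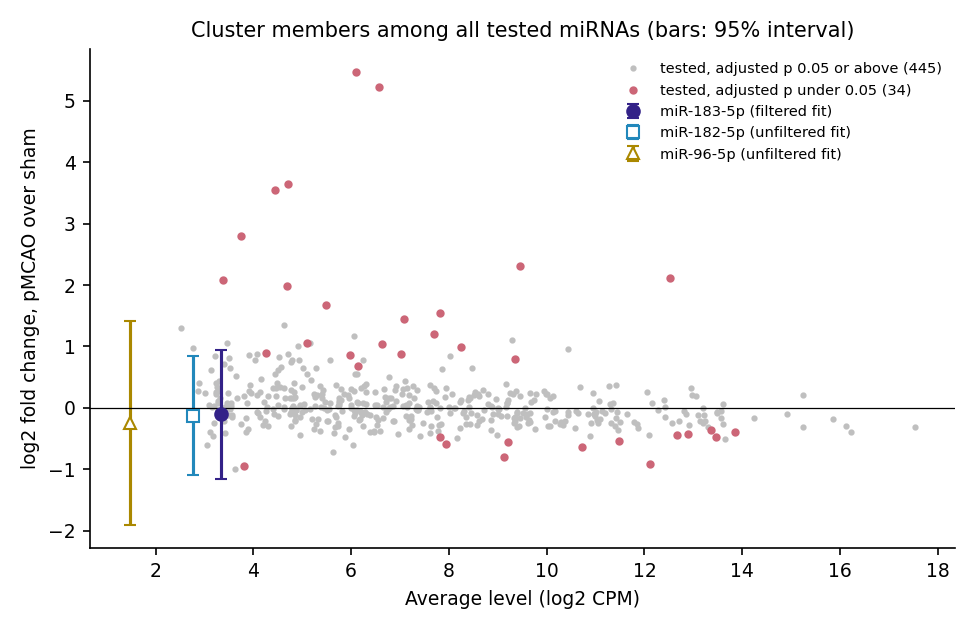
log2 fold change (pMCAO over sham) against average level (log2 CPM) for the 479 miRNAs tested by edgeR, with the 34 past an adjusted p of 0.05 in red. miR-183-5p is drawn from the same fit, and miR-182-5p and miR-96-5p from the fit without a filter, each with its 95% interval, and all 3 intervals include 0.

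Single libraries stood high for more than 1 member. pMCAO replicate 1 had the highest level of miR-183-5p (20.2 CPM). Within its group it also had those of miR-182-5p (11.2 CPM) and miR-96-5p (3.37 CPM, from 3 counts). Sham replicate 3 had the highest level of miR-182-5p (12.3 CPM) and miR-96-5p (3.42 CPM, from 5 counts) of all libraries. A check for a library far from the others of its group flagged 0 of 18 groups of values. Sham replicates 2 and 6, with 14 and 13 counts of the cluster, were the lowest sham libraries, although sham replicate 2 had the highest total of counts.

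Counting error alone would give a chi-square per degree of freedom near 1 for libraries of 1 group. For miR-183-5p it was 3.85 in sham and 6.25 in pMCAO, and for miR-182-5p 4.11 and 2.36. For miR-96-5p it was 2.02 and 1.67. The spread between libraries was thus larger than counting error for the more abundant members, a description for which no test was made.

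**Figure D4:**
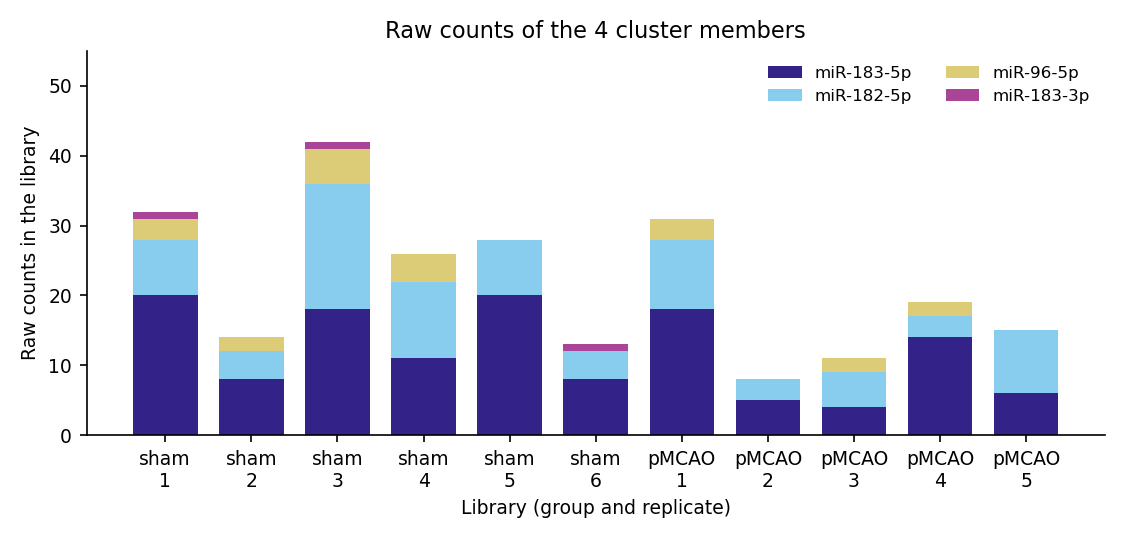
Raw counts of the 4 members stacked for each of the 11 libraries (linear axis from 0), without scaling for depth. The stacks reach between 8 and 42 counts, and miR-183-5p and miR-182-5p make up most of each.

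Ratios within a library need no scaling between libraries, and they were used to compare the members with each other. Where a member had 0 counts, however, its ratio depends on the value added to the counts and on depth. Mature miRNAs are of nearly the same length, here 22 to 25 bases, so that no correction for length was made. A difference between sequences in capture or amplification would recur in every library. The ratios and shares are therefore of counts, and whether they hold for the tissue was not tested. In all libraries together, miR-183-5p took 55.2% of the cluster's counts (exact 95% binomial interval 48.7 to 61.6%), miR-182-5p 34.7% (28.7 to 41.1%), miR-96-5p 8.79% (5.52 to 13.1%) and miR-183-3p 1.26% (0.260 to 3.62%). These intervals, and the other binomial intervals of shares given below, cover counting error only. They pool the libraries and take each read as independent, and the reads carry no molecular identifiers. The spread between libraries is left out: in single libraries the share of miR-183-5p ran from 36.4% (pMCAO replicate 3) to 73.7% (pMCAO replicate 4).

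miR-183-5p was above miR-182-5p in 7 libraries, equal to it in 2 and below it in 2. The mean log2 ratio was 0.64 ± 0.78 (SD, n = 11), larger than 0 in an exact permutation test of the signs (two-sided, p = 0.0234, also after Benjamini-Hochberg adjustment over 4 ratios). The 2 libraries in which the order was turned were pMCAO replicates 3 and 5. miR-96-5p was below miR-182-5p in 11 of 11 libraries, with a mean log2 ratio of -2.07 ± 1.30 (SD, n = 11), and below miR-183-5p in 11 of 11, with -2.71 ± 1.33 (SD, n = 11). Both had an exact permutation p of 0.000977, the smallest that 11 libraries allow, and 0.00130 after adjustment. Without sham replicate 1 the 3 mean log2 ratios were 0.58, -2.15 and -2.73, in the same order. With 1 instead of 0.5 added to the counts of all libraries, they were 0.60, -1.68 and -2.29. The ratios of miR-96-5p rest on the added value in sham replicates 5 and 6 and pMCAO replicates 2 and 5, where it had 0 counts. At the low end, miR-96-5p was above miR-183-3p in 7 libraries, equal in 3 and below in 1, and this pair was not tested.

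The proportions of the members were also compared between the groups. The log2 ratio of miR-183-5p to miR-182-5p averaged 0.73 ± 0.59 in sham (SD, n = 6), against 0.54 ± 1.03 after pMCAO (SD, n = 5, exact permutation test, two-sided, p = 0.719). For miR-96-5p to miR-182-5p it was -2.08 ± 1.27 (SD, n = 6) and -2.05 ± 1.49 (SD, n = 5), with an exact p of 0.961. For miR-96-5p to miR-183-5p it was -2.81 ± 1.58 (SD, n = 6) and -2.59 ± 1.12 (SD, n = 5), with an exact p of 0.823. The ratio of miR-183-3p to miR-183-5p, which rests on 3 counts of the first, had an exact p of 0.857, and all 4 adjusted values were 0.961. Since miR-183-3p had 0 counts in every pMCAO library, this ratio there follows only the 0.5 added and the count of miR-183-5p. It therefore cannot show whether the balance of the 2 arms differed between the groups. Without sham replicate 1 the group differences (pMCAO minus sham) were -0.08 instead of -0.19 for miR-183-5p to miR-182-5p, 0.19 instead of 0.03 for miR-96-5p to miR-182-5p, 0.27 instead of 0.22 for miR-96-5p to miR-183-5p and -0.06 instead of -0.10 for miR-183-3p to miR-183-5p. The share of miR-183-5p in the cluster's counts was 54.8% in sham (46.7 to 62.8%) and 56.0% in pMCAO (44.7 to 66.8%).

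The other arms of the cluster, which are the passenger strands miR-96-3p and miR-182-3p, had 0 counts in all 11 libraries. Of the counts on the Mir182 hairpin, 0 of 83 were thus on the 3p arm (exact 95% binomial interval 0 to 4.35%). Of those on Mir96 it was 0 of 21 (0 to 16.1%). On Mir183, 3 of 135 counts or 2.22% were on the 3p arm (exact 95% binomial interval 0.461 to 6.36%). Such a share was common: of 273 miRNA names with both arms listed and at least 100 counts, 42.5% had a minor arm at or below 2.22%, and the median was 3.798%.

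Markers of other cell types that the tissue could hold were read beside the cluster, from lists written from general knowledge. The epithelial and neuroendocrine miRNAs (miR-200a-3p, miR-200b-3p, miR-200c-3p, miR-141-3p, miR-429-3p and miR-375-3p) were all detected. They summed to between 64.4 and 280 CPM in sham and between 57.6 and 219 CPM in pMCAO libraries. The list does not single out sensory cells. Of this list, 4 of 6 were tested, 0 were higher and 0 lower, with a median log2 fold change of -0.0045 against 0.0015 for all tested miRNAs. Its highest library was sham replicate 1 (the other sham libraries reached 180.5 CPM at most), where the cluster stood at 20.3 CPM, whereas the library highest in the cluster, pMCAO replicate 1 with 34.9 CPM, held 105 CPM of this list.

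Of the leukocyte list, 5 of 6 miRNAs rose after pMCAO (miR-223-3p, miR-142a-3p, miR-142a-5p, miR-155-5p and miR-146a-5p, all but miR-150-5p, by edgeR), with a median log2 fold change of 1.5004 over the 6. The summed level of all 6 ran from 2463 to 3787 CPM in sham and from 3286 to 6649 CPM in pMCAO libraries. pMCAO replicate 1 held the 3286 CPM, the lowest of its group. miR-150-5p, which did not rise, made up most of the mean sums, so they say little about the 5 markers that rose. Its mean was 2735 of 3248 CPM in sham and 2300 of 4258 CPM in pMCAO. The erythrocyte list had 2 of 5 markers tested, of which 0 were called, and sums of 49.2 to 5375 CPM in sham and 640 to 4735 CPM in pMCAO libraries. The overlap rests on sham replicate 1: the other 5 sham libraries held 49.2 to 272 CPM, below every pMCAO library. For choroid plexus and ependyma (miR-204-5p, miR-211-5p, miR-449a-5p, miR-34b-5p and miR-34c-5p), 4 of 5 were tested and 0 were called, with sums of 1764 to 2565 and 1757 to 2077 CPM. Of the neuron markers, all 6 were tested and 0 were called (median log2 fold change -0.11). miR-124-3p was near the threshold (log2 fold change -0.32, edgeR, adjusted p = 0.0523). It was lower in every pMCAO than in every sham library, and groups lay apart for 7.52% of all tested miRNAs. miR-138-5p went the other way (log2 fold change 0.21). The part of these cell types in the levels of the cluster was not tested.

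The miRNAs whose levels moved most like those of miR-183-5p between the libraries of a group were found by Pearson's r of log2 CPM after the group means were taken off, over 11 libraries and 478 other tested miRNAs. They were miR-744-3p (r = 0.845), miR-134-3p (r = 0.794), which comes from an imprinted miRNA cluster, and miR-551b-3p (r = 0.768). These are the highest of many values and are given as a description. The mean levels were 75.0 CPM in sham and 65.4 CPM in pMCAO for miR-744-3p, 15.8 and 15.3 CPM for miR-134-3p, and 2860 and 2544 CPM for miR-551b-3p, and 0 of these 3 were called between the groups (edgeR, adjusted p = 0.461, 0.955 and 0.632).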

How the data were processed

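The deposited values are raw counts for each mature miRNA name. According to the methods and the labels, the authors removed adapters with the Torrent Suite, checked the reads with FastQC, kept those of 20 to 30 bp, used Bowtie to map these to mm10, and obtained counts from HTSeq with the miRBase annotation. How reads with several matches were assigned is not given in the sources used here. Nothing in the labels says that replicates come from separate mice, so that p-values measure the spread between these samples.

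The tests were run with edgeR 4.0.16 under R 4.3.3 (filterByExpr with a minimum count of 10 and a minimum total of 15, TMM, glmQLFit and glmQLFTest, Benjamini-Hochberg adjustment, threshold 0.05) without covariates, and with DESeq2 1.42.0 as an alternative. Standard errors are the log2 fold change over the square root of F, and 95% intervals use the t distribution. TMM library sizes also scaled the names below the filter. Members below it were compared on log2(CPM + 1), and ratios on log2 counts with 0.5 added, by exact permutation over all 462 arrangements (scipy 1.17.1). The test of ratios over all libraries and the unfiltered intervals of miR-183-5p were added after seeing the data. The fits were tested on simulated counts.

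Named miRNAs are the members, the other arms and the 3 most alike to each tested member. Markers were written from general knowledge. The members and lists were chosen with earlier results of these data known. No library was a duplicate of another of its group (chi-square per degree of freedom at least 17.985).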

Additional observations from a re-analysis of the deposited data

How the results depend on the processing

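No alternative changed a call between the groups: 0 members were called in any setting. This count could not differ without sham replicate 1 or 3, or with 10 counts asked in every library, since 0 members were tested there. DESeq2 tested 3 members, edgeR without a filter 4, and the other edgeR fits 1. The calls over all miRNAs in these settings are given below. Directions were not stable. With total counts as the only scaling, the median over the 479 tested miRNAs moved to 0.18. The log2 fold change of miR-183-5p in that fit turned to 0.0649, below that median. Without a filter it turned to 0.068 and that of miR-182-5p to 0.0771. The difference in log2(CPM + 1) of miR-182-5p turned to 0.0951. The median does not apply to these last values, which come from another fit or measure. With 1 added to the counts, the group difference in the log2 ratio of miR-183-3p to miR-183-5p turned from -0.10 to 0.152.

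With 1 library left out at a time, the log2 fold changes ran from -0.614 to 0.130 for miR-183-5p (-0.628 to 0.0955 without a filter), and without a filter from -0.498 to 0.246 for miR-182-5p and from -0.794 to 0.142 for miR-96-5p. Differences in log2(CPM + 1) ran from -0.319 to 0.187 for miR-182-5p and from -0.401 to 0.131 for miR-96-5p. Group differences in log2 ratios ran from -0.571 to 0.0784 for miR-183-5p to miR-182-5p, from -0.372 to 0.578 for miR-96-5p to miR-182-5p, from -0.288 to 0.513 for miR-96-5p to miR-183-5p and from -0.377 to 0.194 for miR-183-3p to miR-183-5p. The order of miR-183-5p over miR-182-5p kept its call, with mean log2 ratios from 0.501 to 0.761 and unadjusted exact p up to 0.0469. miR-183-5p fell below the filter without sham replicate 1 or 3, and with at least 10 counts asked in every library.

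The labels state no pairing by replicate number. Correlations of same-numbered libraries ran from -0.0701 to 0.230, and 1 of 5 sham libraries was closest to its own number. These values cannot exclude a pairing. With the replicate number as a block, the log2 fold change of miR-183-5p was -0.31. Over all miRNAs, calls went from 34 (21 higher, 13 lower) to 22 (19 and 3) under the block, 44 (43 and 1) with total counts, 27 (23 and 4) with the upper quartile, 33 (25 and 8) without a filter, 18 (15 and 3) with 10 counts in every library, 43 with DESeq2, and 16 to 36 with a library left out. The causes were not tested. In no library did a member exceed 20 counts. That miR-183-5p and miR-182-5p spread more between libraries than counting error is a description, for which no test was made.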
